A study of Mus musculus with 7 samples.

Results

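The NuRD complex subunits described here are 10 genes chosen by name, Chd4, Chd3, Mta1, Mta2, Mta3, Hdac1, Hdac2, Mbd2, Mbd3 and Rbbp4. All 10 were among the 16734 genes of the deposited table, and all 10 reached a mean level of 1 RPKM across libraries, the filter that 10498 genes passed. RPKM corrects reads for exon length and library depth, so levels of different genes can be compared. Polyadenylated RNA was sequenced from cell suspensions of whole thymus of 4 week old mice. There were 3 libraries of wild type C57BL/6 mice, 2 of mice homozygous for a mutation of the first DNA-binding zinc finger of Ikaros (ZnF1-/-) and 2 of mice homozygous for a mutation of the fourth (ZnF4-/-). The labels give the mutants by these alleles alone, with no strain background. They do not say whether libraries of a group came from separate animals, so p-values measure the spread between these samples.

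NuRD, or Mi-2/NuRD, joins remodelling and deacetylation in a single assembly. An ATPase of the CHD family slides nucleosomes, and a pair of histone deacetylases removes acetyl groups from their tails. MTA proteins form the scaffold that holds the deacetylases, MBD proteins link the deacetylase module to the remodeller and in part read methylated CpG, and RBBP proteins bind histone H3 and H4. Ikaros, a zinc finger factor of lymphocytes encoded by Ikzf1, is found in thymocytes in complex with Mi-2beta, the product of Chd4. The comparisons ask whether loss of a single Ikaros finger went with other levels of the genes that encode this partner.

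The first replicate of each group had 76 bp reads from a GAIIx and all others (2, 2A, 2B) had 50 bp reads from a HiSeq, so each group spans both kinds of library. The libraries also differ by sex along the same line, since Xist was between 90.6 and 109 RPKM where reads were 76 bp and at most 0.03 RPKM elsewhere. The listed exons took 54.8% to 56.7% of mapped reads in the 76 bp libraries and 63.4% to 67.2% in the 50 bp libraries. Depth was estimated for the 76 bp libraries from the steps that single reads make in low values, as 20146000 reads in wild type, 14296000 in ZnF1-/- and 6307000 in ZnF4-/-, and is unknown for the 50 bp libraries. As for the tissue, 10 genes listed for double-positive thymocytes, Cd4 and Cd8a among them, summed to 3541 to 4760 RPKM per library. That list also holds Cd3 genes and Ptcra, which are not confined to that stage. The 6 genes of thymic epithelium summed to 4.30 to 6.64 RPKM, mostly Ccl25 and Epcam, with the epithelial regulator Foxn1 at most at 0.06 RPKM. Ikzf1 was at 142 to 175 RPKM in wild type, 183 and 194 RPKM in ZnF1-/- and 238 and 257 RPKM in ZnF4-/-, which does not show whether a finger is missing.

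Each member was expressed in every library, at 6.70 RPKM or more. In wild type, Chd4 and the scaffold gene Mta2 were highest, at 107 ± 25.2 and 104 ± 20.1 RPKM (SD, n = 3), ranks 199 and 207 of all listed genes. Mbd2 followed at 87.1 ± 11.3 RPKM, then Mbd3 at 49.0 ± 16.1, Rbbp4 at 48.4 ± 7.63, Hdac2 at 41.1 ± 5.66, Mta1 at 35.9 ± 10.02, Chd3 at 31.2 ± 8.51 and Mta3 at 24.1 ± 4.93 RPKM. Hdac1 was lowest at 9.79 ± 4.23 RPKM. Ranges of neighbours in this order overlapped over the 3 wild type libraries, except that Mbd2 stood clear of Mbd3 and Mta3 of Hdac1. Within single libraries the order was firmer: Mta2 was above Mbd2, Rbbp4 above Hdac2, Mta1 above Chd3 and Chd3 above Mta3 in 7 of 7, whereas Mbd3 was above Rbbp4 in 4 of 7 and Hdac2 above Mta1 in 3 of 7.

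**Figure D1:**
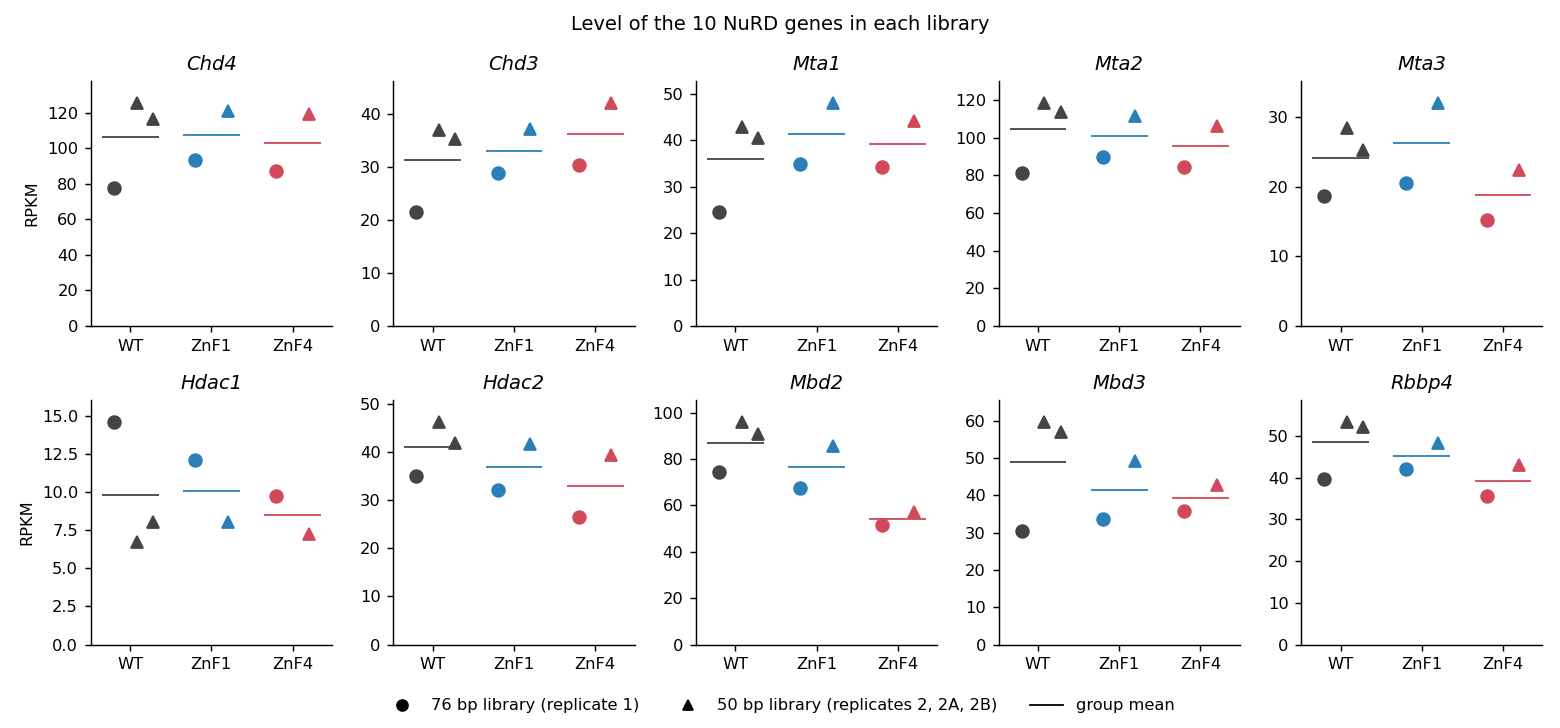
RPKM of each of the 10 genes (vertical axis, from 0) in the 3 wild type (WT), 2 ZnF1-/- and 2 ZnF4-/- libraries, with circles for 76 bp and triangles for 50 bp libraries and a line at the group mean. Within each group, circles lie below triangles in every panel but that of Hdac1, and both ZnF4-/- points of Mbd2, at 51.5 and 57.1 RPKM, lie below all others.

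Levels differed with the kind of library. In wild type 9 of 10 members were higher in the 50 bp libraries, with a median log2 difference of 0.51, where 72.2% of all tested genes were higher and the median was 0.23. The largest difference in that direction was that of Mbd3, at 30.5 RPKM in replicate 1 and 59.7 and 56.95 RPKM in replicates 2A and 2B (log2 difference 0.92). Hdac1 went the other way, from 14.6 RPKM in replicate 1 to 6.70 and 8.05 RPKM (-0.95), at percentile 1.89 of the tested genes on this measure. Read length, instrument and sex cannot be told apart here.

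Hdac1, a catalytic deacetylase of the complex (chromosome 4, 129193348 to 129219957, minus strand, mm9), has a nearly identical copy elsewhere in the genome, so its RPKM is uncertain. Of its 50 base windows, 76.4% occur exactly at another place in mm9, and of its 76 base windows 64.6% do. The same share was at most 1.49% for the other members at 50 bases and 0% at 76 bases. Most of the matching windows lie in the single-exon gene Gm10093 (matches from 78890879 to 78892881 of chromosome 17, plus strand), which is 98.8% identical to the Hdac1 transcript over 1544 bases, with 19 differences, and is not a row of the table analysed here. A stretch of 120 bases, positions 387 to 506 of the transcript ENSMUST00000102597.4 and chr17:78891224-78891343 of the copy in NCBIM37 (mm9), shows how little separates them. Capitals mark the 2 bases that differ, and no 50 base read that falls between them can be assigned by its letters.
Hdac1 transcript: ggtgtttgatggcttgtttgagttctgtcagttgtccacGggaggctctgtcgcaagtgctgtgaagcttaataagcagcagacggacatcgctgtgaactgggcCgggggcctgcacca
copy: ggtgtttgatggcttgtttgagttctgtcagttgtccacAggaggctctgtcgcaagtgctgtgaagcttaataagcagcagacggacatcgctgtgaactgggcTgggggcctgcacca
The treatment of reads with several matches is not given in the sources used here. The part of this copy in the low level of Hdac1 and in its difference between library kinds was not tested.

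**Figure D2:**
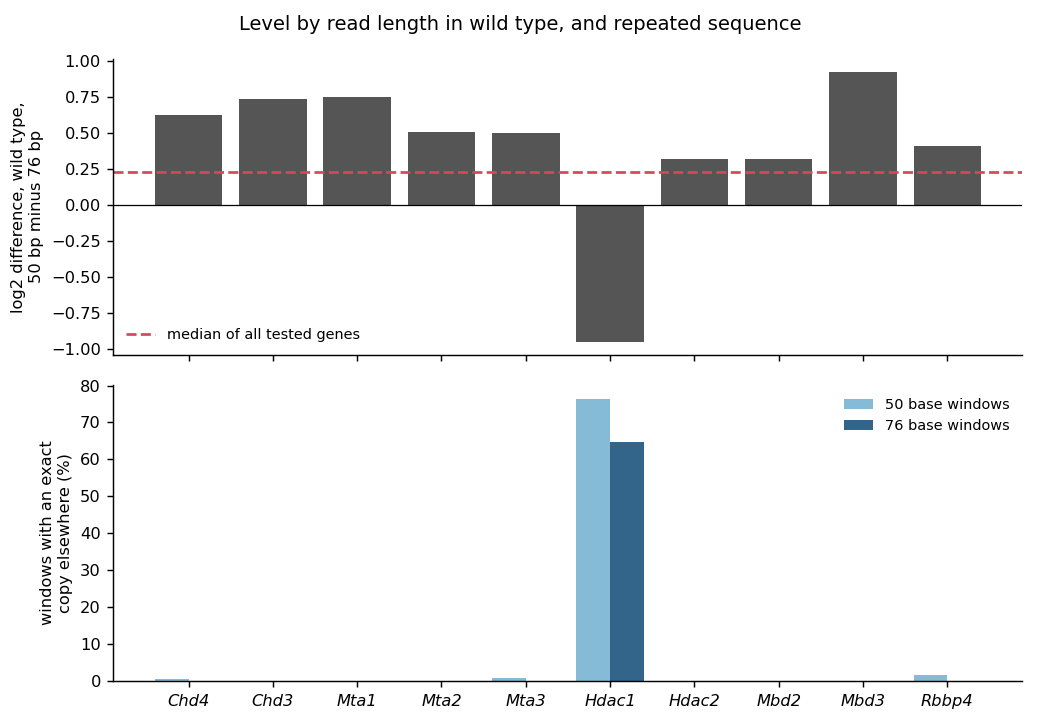
Upper bars give, for wild type, the mean log2(RPKM + 0.5) of the 2 50 bp libraries minus that of the 76 bp library for each gene, with a dashed line at the median of all tested genes, 0.23. Lower bars give the percent of 50 and 76 base windows of each transcript that occur exactly elsewhere in mm9, where Hdac1 reaches 76.4% and 64.6% and all others stay at or below 1.49%.

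Differences between groups were tested with limma on log2(RPKM + 0.5) over all 10498 genes, without and with the replicate number as a block. The block compares libraries of 1 kind with each other, and is called the blocked fit. In ZnF1-/- thymus 0 of 10 members passed an adjusted p of 0.05 in either fit, where 0.0857% of tested genes were called without the block and 0.876% with it. An unadjusted p under 0.05 was reached by 0 members without the block (3.85% of genes) and by 1, Mta1, with it (8.73%). In ZnF4-/- thymus 0 of 10 members passed without the block (2.54% of genes called) and 1 fell in the blocked fit (8.22% called, 2.12% as lower). There 1 member without the block (10.1% of genes) and 5 with it (20.5%) had an unadjusted p under 0.05. Between the mutants 0 of 10 passed without the block (2.34% of genes called) and 2 were lower in ZnF4-/- in the blocked fit (7.29% called, 2.1% as lower). Unadjusted, 1 (9.17% of genes) and 2 (20.2%) were under 0.05. Within both kinds of library, ZnF1-/- was below wild type for 2 members, Hdac2 and Mbd2 (17.5% of tested genes), and ZnF4-/- was below ZnF1-/- for 8 (37.3%) and above it for 1, Chd3 (26.6%). The median log2 difference of the members was -0.01 in ZnF1-/- and -0.20 in ZnF4-/- against wild type, beside -0.02 and -0.05 over all tested genes.

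**Figure D3:**
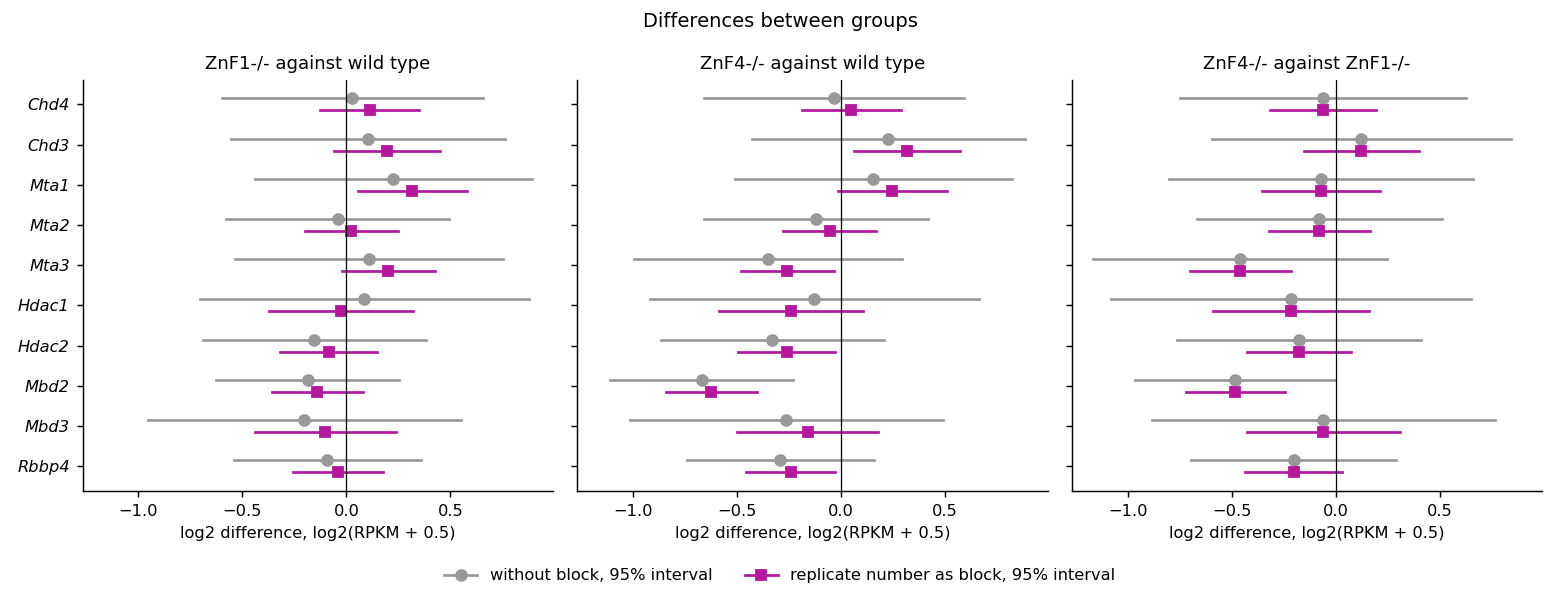
Log2 difference between groups (horizontal axis) for each gene in the 3 comparisons, with its 95% interval, in grey without the block and in purple with the replicate number as a block. The purple interval of Mbd2 in ZnF4-/- against wild type runs from -0.84 to -0.41, and those of Mbd2 and Mta3 in ZnF4-/- against ZnF1-/- also lie below 0. Purple intervals of genes that did not pass also exclude 0. In ZnF4-/- against wild type they lie below 0 for Mta3, Hdac2 and Rbbp4 and above 0 for Chd3. In ZnF1-/- against wild type that of Mta1 lies above 0. Intervals are not adjusted for the number of genes.

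Of the MBD genes, Mbd2 was lower in ZnF4-/-. Mbd2 (chromosome 18, 70727843 to 70785785, plus strand), which binds methylated CpG, was at 74.5, 96.1 and 90.7 RPKM in wild type replicates 1, 2A and 2B, at 67.6 and 85.5 RPKM in ZnF1-/- and at 51.5 and 57.1 RPKM in ZnF4-/-. Both ZnF4-/- libraries were below all 5 others, also across the kinds of library. Among all tested genes, 10.6% had both ZnF4-/- libraries below every wild type library and 16.8% below every ZnF1-/- library, and Mbd2 was the 1 member in either count. The log2 difference of ZnF4-/- from wild type was -0.67 ± 0.19 (SE, limma adjusted p = 0.18, unadjusted p = 0.00848) without the block, and Mbd2 fell by 0.62 in the blocked fit, a change of -35.1% (SE 0.09, adjusted p = 0.00582). It was -0.53 within the 76 bp and -0.70 within the 50 bp libraries. Scaling the libraries to a common median, or quantile normalization, brought the unblocked difference past the threshold (limma adjusted p = 0.023 and 0.0244). With wild type 2A and 2B averaged as 1 library it was -0.62 and did not pass (adjusted p = 0.51), and without single libraries the unblocked adjusted p ran from 0.086 to 0.728. By the estimated depth, the lowest 76 bp value of Mbd2 rests on about 603 reads, a counting error of 4.07%, which covers counting alone.

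Mbd2 also differed between the mutants in the blocked fit, lower in ZnF4-/- than in ZnF1-/- by a log2 value of -0.48 ± 0.10 (limma adjusted p = 0.0286, and 0.54 without the block). That call was lost without either ZnF1-/- library (adjusted p = 0.217 without replicate 1 and 0.252 without replicate 2), without ZnF4-/- replicate 2 (0.115) and without wild type replicate 2B (0.084). The fall against wild type passed in the blocked fit without any 1 of the 7 libraries, with log2 differences from -0.71 to -0.52. In ZnF1-/- the difference of Mbd2 from wild type was -0.14 in the blocked fit, with an interval from -0.36 to 0.08.

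Mbd3 (chromosome 10, 79855284 to 79862295, minus strand), the relative of Mbd2 that in mammals has lost most of its affinity for methylated CpG, passed in neither fit over all libraries. It was at 30.5, 59.7 and 56.95 RPKM in wild type, 33.8 and 49.2 RPKM in ZnF1-/- and 35.8 and 42.7 RPKM in ZnF4-/-. In the 76 bp libraries the ZnF4-/- value was the highest of the 3, and in the 50 bp libraries it was the lowest of the 4. The log2 difference of ZnF4-/- from wild type was 0.23 within the 76 bp libraries and -0.44 within the 50 bp libraries. A fit of the 50 bp libraries alone gave a limma adjusted p of 0.0238, but it holds 1 ZnF4-/- library and takes its spread from wild type 2A and 2B, which may not be separate animals. The change of Mbd3 was not tested against that of Mbd2. Over all libraries it was -0.26 ± 0.32 (adjusted p = 0.965; 0.618 in the blocked fit).

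Summed, the 2 MBD genes were at 87.3 and 99.8 RPKM in ZnF4-/-, against 105, 156 and 148 RPKM in wild type and 101 and 135 RPKM in ZnF1-/-. Mbd2 held 59.0% and 57.2% of that sum in ZnF4-/-. It held 71.0%, 61.7% and 61.4% in wild type and 66.7% and 63.5% in ZnF1-/-. A share within a library does not depend on how libraries are scaled. These shares were not tested.

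Of the scaffold genes, Mta3 (chromosome 17, 84105503 to 84223055, plus strand) differed most between the mutants. MTA3 is known as a partner of BCL6 in germinal centre B cells. It was at 18.7, 28.4 and 25.2 RPKM in wild type, 20.6 and 32.0 RPKM in ZnF1-/- and 15.3 and 22.4 RPKM in ZnF4-/-. Within each kind of library ZnF1-/- was highest and ZnF4-/- lowest, while across kinds the groups overlapped. Between the mutants the log2 difference was -0.46 in both fits, with adjusted p = 0.863 without the block (SE 0.30) and limma adjusted p = 0.0378 with it (SE 0.11). That call held in the blocked fit without wild type replicate 1 and was lost without each of the other 6 libraries, with adjusted p from 0.0514 to 0.292. Against wild type neither mutant passed, with blocked log2 differences of 0.20 for ZnF1-/- and -0.26 for ZnF4-/- (limma adjusted p = 0.634 and 0.175).

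Mta2 (chromosome 19, 9016365 to 9026793, plus strand) was the most abundant scaffold transcript and the steadiest. It was at 81.3, 118 and 114 RPKM in wild type, 89.5 and 112 RPKM in ZnF1-/- and 84.3 and 106 RPKM in ZnF4-/-. Its highest value was 1.45 times its lowest, the smallest ratio among the 10 members. The blocked interval of its difference from wild type ran from -0.20 to 0.25 in ZnF1-/- and from -0.28 to 0.17 in ZnF4-/-. Mta1 (chromosome 12, 114336489 to 114375417, plus strand) was at 24.45, 42.95 and 40.4 RPKM in wild type, 34.8 and 48.0 RPKM in ZnF1-/- and 34.3 and 44.2 RPKM in ZnF4-/-. Both mutants were above wild type within each kind of library, yet neither passed in the blocked fit (log2 differences 0.32 and 0.25, limma adjusted p = 0.402 and 0.276). Among all tested genes, 20.3% were above wild type within both kinds of library in ZnF1-/- and 20.6% in ZnF4-/-, as were 3 members (Chd3, Mta1 and Mta3) and 2 members (Chd3 and Mta1).

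The 3 MTA genes kept their order in each library. Mta2 made up 58.3% to 65.3% of their summed RPKM and Mta1 19.6% to 25.6%. Mta3 made up 11.4% and 13% in ZnF4-/-, 14.1% to 15% in wild type and 14.2% and 16.7% in ZnF1-/-.

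The remodellers did not pass in any comparison. Chd4 (chromosome 6, 125045999 to 125080609, plus strand), the ATPase that Ikaros binds, was at 77.9, 125 and 116 RPKM in wild type, 93.35 and 121 RPKM in ZnF1-/- and 87.0 and 119 RPKM in ZnF4-/-. Within the 50 bp libraries the 4 values ran from 116 to 125 RPKM, and both mutant values lay between those of wild type 2A and 2B. The blocked log2 difference from wild type was 0.11 in ZnF1-/- (interval -0.13 to 0.35) and 0.05 in ZnF4-/- (interval -0.19 to 0.29). Without the block the sign in ZnF4-/- was the opposite (-0.03 ± 0.27).

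Chd3 (chromosome 11, 69156775 to 69182928, minus strand), which encodes the alternative ATPase Mi-2alpha, was at 21.45, 36.9 and 35.3 RPKM in wild type, 28.7 and 37.1 RPKM in ZnF1-/- and 30.2 and 41.9 RPKM in ZnF4-/-. ZnF4-/- was the highest within each kind of library. Its blocked log2 difference from wild type was 0.32 ± 0.11, which did not pass over all genes (limma adjusted p = 0.145, unadjusted p = 0.0209). Chd3 made up 25.8% and 26.0% of the summed Chd3 and Chd4 level in ZnF4-/-, 21.6% to 23.3% in wild type and 23.5% and 23.4% in ZnF1-/-. Of the exonic bases of Chd3, 5.66% overlap Gm17305 on the other strand, and whether counting used strand is not given in the sources used here.

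**Figure D4:**
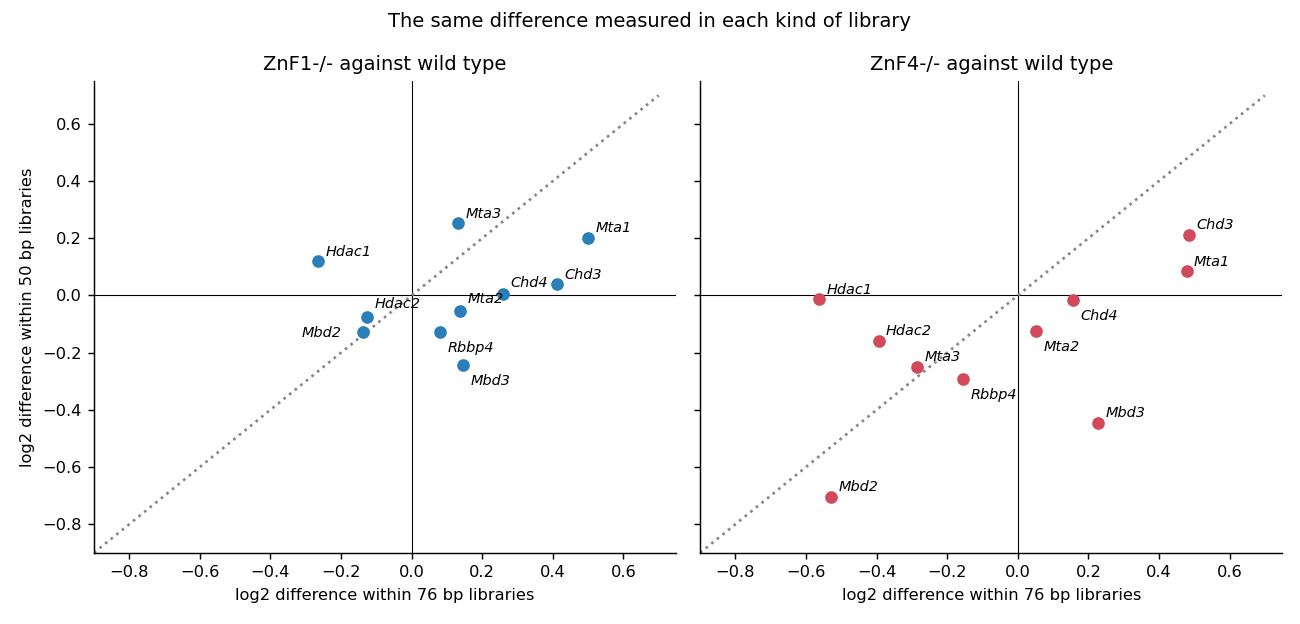
Each point is 1 gene, with its log2 difference from wild type within the 76 bp libraries (horizontal axis) and within the 50 bp libraries (vertical axis), for ZnF1-/- on the left and ZnF4-/- on the right. The dotted line marks equal differences. Mbd2 in ZnF4-/-, at -0.53 and -0.70, is the farthest from 0 on the side shared by both, and Mbd3 changes side, at 0.23 and -0.44.

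Neither deacetylase gene passed in any comparison. Hdac2 (chromosome 10, 36694350 to 36721695, plus strand), which has no exact copy of its windows elsewhere, was at 35.1, 46.3 and 41.9 RPKM in wild type, 32.1 and 41.8 RPKM in ZnF1-/- and 26.6 and 39.4 RPKM in ZnF4-/-. The blocked log2 difference of ZnF4-/- was -0.26 ± 0.10 (limma adjusted p = 0.185). Hdac1 was at 14.6, 6.70 and 8.05 RPKM in wild type, 12.1 and 8.03 RPKM in ZnF1-/- and 9.73 and 7.28 RPKM in ZnF4-/-. Its difference in ZnF4-/- was -0.56 within the 76 bp libraries and -0.01 within the 50 bp libraries, and it did not pass in either fit (adjusted p = 0.986 and 0.43). Hdac1 in ZnF4-/- replicate 1 rests on about 122 reads, a counting error of 9.06%. Hdac1 made up 26.8% to 29.4% of the summed level of both in the 76 bp libraries and 12.6% to 16.1% in the 50 bp libraries, a share that changed with the kind of library in all 3 groups.

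Rbbp4 (chromosome 4, 128984344 to 129012614, minus strand), the histone chaperone that NuRD shares with other complexes, was at 39.7, 53.4 and 52.3 RPKM in wild type, 42.0 and 48.3 RPKM in ZnF1-/- and 35.6 and 43.0 RPKM in ZnF4-/-. ZnF4-/- was the lowest within each kind of library. Its blocked log2 difference from wild type was -0.24 ± 0.09, a change of -15.4%, and did not pass (limma adjusted p = 0.186). Of its exonic bases 8.94% overlap Sync on the other strand. In ZnF4-/- 4 of 10 members were below wild type within both kinds of library, Mbd2, Mta3, Hdac2 and Rbbp4, where 24.3% of all tested genes were. Hdac1 in ZnF4-/- lay between the wild type values in the 50 bp libraries.

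**Figure D5:**
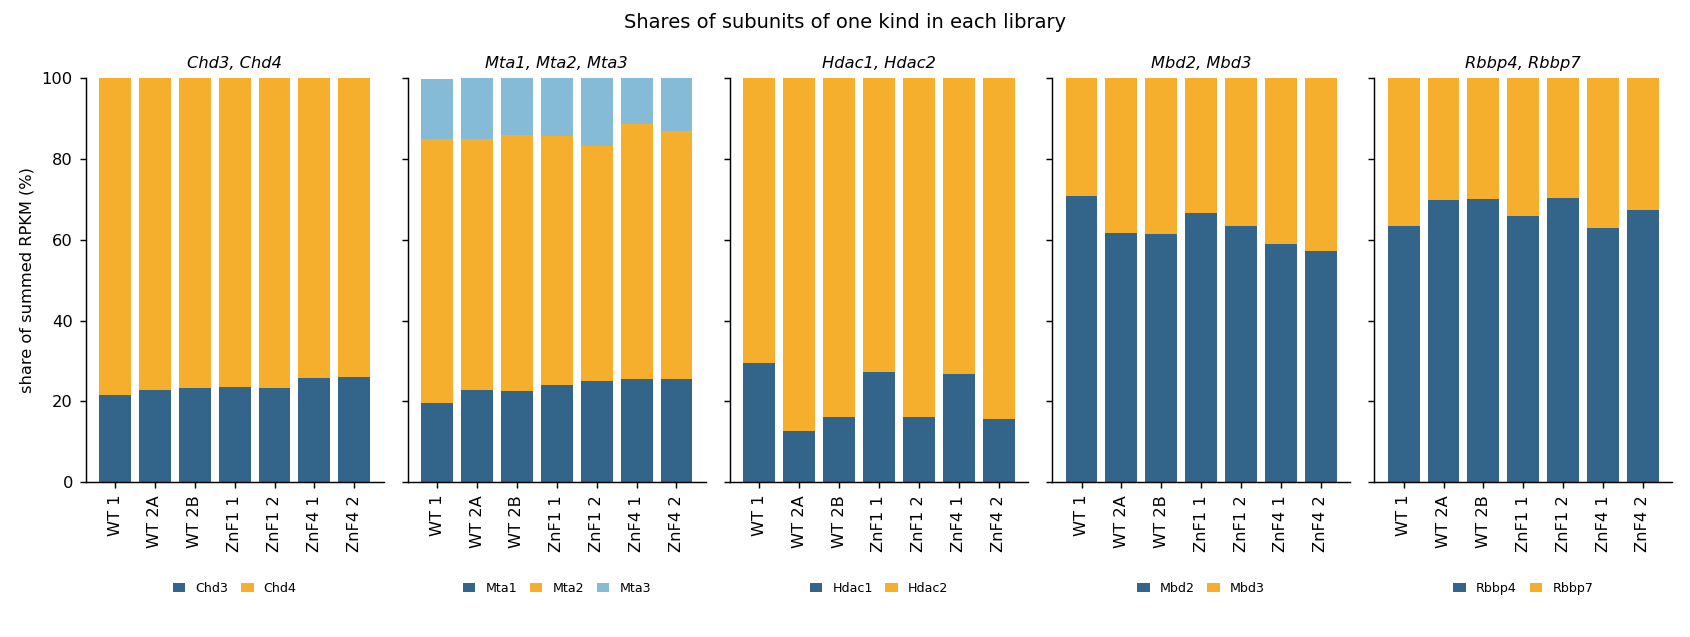
Bars give the percent that each gene takes of the summed RPKM of subunits of its kind (vertical axis, 0 to 100%) in each of the 7 libraries, ordered by group. The Hdac1 share is 26.8% to 29.4% in the 76 bp libraries, which carry the number 1, and 12.6% to 16.1% in the others, and the Mbd2 share is lowest in ZnF4-/-, at 59.0% and 57.2%.

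Genes of dividing cells and of other cell types are given beside these results. Of 11 tested proliferation genes 0 passed without the block and 1 fell in the blocked fit in ZnF4-/- against wild type. Among all tested genes 2.54% were called without the block, and 8.22% with it, 2.12% as lower. An unadjusted p under 0.05 was reached by 0 without the block (10.1% of genes) and by 3 with it (20.5%). Their median log2 difference was -0.23, and 10 of 11 were negative, where 6193 of all 10498 tested genes were negative. The gene that fell was Pcna, the DNA polymerase clamp (36.8, 20.1 and 21.9 RPKM in wild type, 23.9 and 14.1 RPKM in ZnF4-/-, limma adjusted p = 0.00689 with the block and 0.891 without). The 6 macrophage markers summed to 87.6 and 114 RPKM in ZnF4-/- against 49.5 to 69.4 RPKM in wild type. Most of that sum was Lyz2 (56.8 and 73.9 RPKM in ZnF4-/-), and in the 76 bp libraries Csf1r, Cd68, Emr1 and C1qb, 4 of the 6, were lower in ZnF4-/- than in wild type. The 4 red cell markers summed to 48.5 and 62.4 against 12.2 to 31.8 RPKM, mostly Hbb-b1 (43.4 and 44.9 RPKM in ZnF4-/-), while Hba-a1 was lower in ZnF4-/- in the 76 bp libraries (2.40 against 3.09 RPKM). The 10 genes listed for double-positive thymocytes, not all confined to that stage, summed to 3541 and 4055 against 3860 to 4760 RPKM. Of their log2 differences 5 of 10 were negative (Cd4, Cd8a, Cd8b1, Rag1 and Rag2), each below wild type within both kinds of library. The 5 positive were Ptcra, Dntt, Cd3e, Cd3g and Cd3d, of which Dntt and Cd3d were above wild type within both kinds. Cd8a was called lower in the blocked fit (limma adjusted p = 0.0479, and 0.371 without the block). The 5 B cell markers summed to 0.89 to 1.23 RPKM in ZnF1-/-, 4.14 to 5.40 RPKM in wild type and 4.10 to 6.95 RPKM in ZnF4-/-. In whole thymus, fewer cells of a type and less RNA per cell cannot be told apart, and the part of these shifts in the levels of Mbd2 and Mta3 was not tested.

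The remaining NuRD subunits showed no called change. Of 6 listed, 4 were tested, 0 passed in either fit of limma in any comparison, and 0 had an unadjusted p under 0.05. Gatad2b and Gatad2a, which encode the p66 proteins that bridge the remodeller to the deacetylase module, were at 61.7 ± 6.14 and 32.0 ± 7.18 RPKM in wild type. The 2 with the largest differences without the block were Cdk2ap2 (0.35 in each mutant against wild type, with a wild type range from 22.4 to 46.7 RPKM) and Rbbp7, the paralogue of Rbbp4 (-0.11 and -0.12). For Cdk2ap2 the difference was 0.99 in ZnF1-/- and 1.27 in ZnF4-/- within the 76 bp libraries. Within the 50 bp libraries it was 0.05 and -0.25. Rbbp7 stayed within 20.2 to 23.1 RPKM. Its values in ZnF1-/- (21.8 and 20.2 RPKM) and ZnF4-/- (20.9 and 20.7 RPKM) were all below those of wild type (22.8, 23.1 and 22.3 RPKM). In ZnF4-/- against wild type, 10.6% of all tested genes were separated in that way. Chd5, the remodeller of neural tissue and testis, was at most 0.08 RPKM, and Cdk2ap1 at most 1.03 RPKM.

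Relatives outside NuRD held single called genes. In ZnF4-/- against wild type, 2.54% of all tested genes were called without the block. With the block 8.22% were called, 6.1% as higher and 2.12% as lower. Of 7 other CHD genes 1 rose in ZnF4-/-, Chd7, a remodeller of active enhancers. It was at 1.38, 2.12 and 1.80 RPKM in wild type, 1.51 and 1.75 RPKM in ZnF1-/- and 4.61 and 5.02 RPKM in ZnF4-/-, a log2 difference of 1.24 from wild type (limma adjusted p = 0.0182) and 1.32 from ZnF1-/- (adjusted p = 0.0213). Of 8 tested deacetylase genes outside NuRD 0 passed without the block, and Hdac11 was lower in ZnF4-/- in the blocked fit, at 0.23 and 0.65 RPKM against 0.76, 1.48 and 1.24 RPKM in wild type (adjusted p = 0.0313, and 0.371 without the block). Its ZnF1-/- values were 1.80 and 2.71 RPKM, above wild type within each kind of library. Of 21 genes of the SIN3 and CoREST complexes, which also use HDAC1 and HDAC2, 0 passed without the block and 1 rose in the blocked fit, Rcor3, at 7.85 and 7.87 RPKM in ZnF4-/- against 3.99, 5.41 and 5.35 RPKM (adjusted p = 0.0145, and 0.157 without the block). Of 6 other methyl-CpG binding genes 0 passed in either fit of limma and 0 had an unadjusted p under 0.05, and Mbd4 (0.22) and Zbtb33 (-0.17) had the largest differences in ZnF4-/-.

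Among transcription factors that bind NuRD, 2 of 13 tested rose in ZnF4-/- without the block and 4 with it, where 2.24% and 6.1% of all tested genes rose. The 2 were Ikzf3, at 151 and 163 RPKM against 82.4 to 95.5 RPKM in wild type, and Ikzf4, at 5.50 and 7.83 against 2.28 to 2.64 RPKM (limma adjusted p = 0.0459 and 0.0167). The blocked fit added Ikzf1 and Ikzf2 (adjusted p = 0.00737 and 0.0181, against 0.198 and 0.283). Zbtb7a was higher in ZnF4-/- than in ZnF1-/- in the blocked fit alone (log2 difference 0.40, adjusted p = 0.046). In ZnF1-/- against wild type 0 genes of these lists passed in either fit of limma, and over the lists at most 1 each had an unadjusted p under 0.05.

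Genes with the most similar profile over the 7 libraries were found for the 3 members with the smallest unadjusted p in the unblocked fit, by Pearson's r of log2(RPKM + 0.5). For Mbd2 they were Hat1, 1810026J23Rik and Iqcd (r = 0.988, 0.988 and 0.987), for Rbbp4 Slc25a38, Arid3a and Rasgrp2 (0.995, 0.993 and 0.993), and for Mta3 Tmem9, Smyd3 and Npc1 (0.993, 0.991 and 0.99). The libraries share their kind and their depth across genes, so high values of r are common and carry no p. RefSeq promoters (GRCm38.p6, 250 bases before to 50 after a start) were matched for 6 members, Chd4 (2 promoters, which overlap), Mta1, Mta2, Hdac2, Mbd3 and Rbbp4, and so for neither Mbd2 nor Mta3. The letters TGGGAA, which hold the core that Ikaros fingers bind, or their reverse TTCCCA, were in 0 of their 7 promoters, and in 25.6% of 32851 promoters of the same length. The shorter core GGGAA was not counted, and its reverse TTCCC stands in the Chd4 promoter that starts at 125095913. So the count of 0 does not show that the core is absent. The 7 promoters held 17 to 50 CpG each, against a median of 7 over the 32851, so that share comes from promoters of other base composition.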

How the data were processed

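The authors deposited RPKM values. Per the series design text, exonic reads were counted in SeqMonk against NCBI mm9 annotation, with genes kept that had a read in any library. TopHat and bedtools are named in the submitters' processing notes, with no version. Strand and the treatment of reads with several matches are not given in the sources used here. No column of the table was left out.

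Values were log2 transformed after adding 0.5 RPKM, which understates changes of low genes. Genes whose mean reached 1 RPKM (10498) were tested with limma 3.58.1 (R 4.3.3, lmFit and eBayes with trend), in 1 fit of 3 groups. P-values are two-sided and adjusted by Benjamini and Hochberg over all genes of a comparison, with a threshold of 0.05. The script was checked on simulated data.

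Replicate numbers mark the instrument and read length by the labels' protocols. Deviations from group means correlated at 0.489 to 0.737 over 8 pairs of libraries of different groups with the same number. In groups of 2 libraries the deviations are mirror images of each other, so the 8 values are not separate observations. By the labels' protocols the numbers were taken to pair the libraries, and the blocked fit adds the number (2A and 2B as 2) as a term.

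For repeated sequence, the transcript in GENCODE vM1 closest to the listed length was cut into windows and searched on both strands of the mm9 chromosomes for exact matches outside the gene. Depth was the value whose read steps best matched low RPKM within 0.006, where 41.7%, 47.9% and 58.4% of low values fell on steps in the 3 76 bp libraries and chance gives 13.3% to 14.5%.

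The members and lists were chosen with earlier results of these data known. Genes named are the members, list genes past the threshold in either fit, otherwise the 2 largest differences per list, and the genes most like the 3 members with the smallest p in any comparison of the unblocked fit (by the blocked p, Chd3 would stand in place of Rbbp4).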

Additional observations from a re-analysis of the deposited data

Results flagged for a closer look

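Mbd2 and Mta3 differed between the mutants. In the blocked fit, ZnF4-/- minus ZnF1-/- was -0.48 for Mbd2 and -0.46 for Mta3 on the log2 scale (limma adjusted p = 0.0286 and 0.0378), lower in ZnF4-/- in both kinds of library. Without the block neither passed (adjusted p = 0.54 and 0.863). For Mbd2 the differences from wild type were -0.14 in ZnF1-/- and -0.62 in ZnF4-/- in that fit, both downward. For Mta3 they were 0.20 and -0.26, on either side of wild type, and neither passed on its own. Groups of 2 and 3 libraries are too small for a test of single samples that stand apart.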

How the results depend on the processing

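Counts of members called were 0 in each comparison without the block. The replicate block gave 1 in ZnF4-/- against wild type and 2 between the mutants, also with libraries scaled to a common exonic total, to a common median or by quantiles. Without the block, a common median, quantile normalization and a common exonic total each gave 1 in ZnF4-/- against wild type. The 50 bp libraries alone gave 2 there and 1 between the mutants, where the lone mutant libraries are assumed to vary like wild type. In ZnF1-/- every setting tried gave 0. Leaving out each library gave 0 to 0 without the block. With the block it gave 1 to 1 in ZnF4-/- against wild type and 0 to 2 between the mutants. The exonic total and the blocked fits with another scaling or without a library were chosen after seeing the data. The 76 bp libraries alone allow no test.

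Small differences that did not pass changed sign in some settings, and the cause was not tested. With the replicate block these were Mta2 (0.0242) and Hdac1 (-0.0251) in ZnF1-/- and Chd4 (0.0497) in ZnF4-/-. With quantile normalization they were Mta2 in ZnF1-/- (0.0147), Chd4 in ZnF4-/- (0.0994), and Chd4 (0.00077) and Mbd3 (0.0048) between the mutants. With wild type 2A and 2B averaged they were Mta2 (0.0424) and Hdac1 (-0.0746) in ZnF1-/- and Chd4 (0.0706) in ZnF4-/-. Within the 76 bp libraries alone they were Mta2 (0.14), Hdac1 (-0.26), Mbd3 (0.15) and Rbbp4 (0.081) in ZnF1-/-. There they were also Chd4 (0.16), Mta2 (0.052) and Mbd3 (0.23) in ZnF4-/-, and Mbd3 (0.083) between the mutants. In the fit without the block, leaving out a library also changes the mix of library kinds in its group. Leaving out single libraries there moved the ZnF1-/- differences of Chd4 from -0.18 to 0.21, Chd3 from -0.14 to 0.29, Mta1 from -0.027 to 0.45, Mta2 from -0.21 to 0.12, Mta3 from -0.20 to 0.42, Hdac1 from -0.19 to 0.40, Hdac2 from -0.34 to 0.0328, Mbd3 from -0.51 to 0.065 and Rbbp4 from -0.23 to 0.00841. In ZnF4-/- it moved Chd4 from -0.26 to 0.19, Chd3 from -0.0197 to 0.46, Mta1 from -0.10 to 0.34, Mta2 from -0.29 to 0.0459 and Hdac1 from -0.35 to 0.19. Between the mutants it moved Chd4 from -0.29 to 0.17, Chd3 from -0.11 to 0.36, Mta1 from -0.30 to 0.16, Mta2 from -0.24 to 0.088, Hdac1 from -0.50 to 0.0647, Hdac2 from -0.46 to 0.10 and Mbd3 from -0.33 to 0.21. With the block, libraries were left out for Mbd2 and Mta3 alone, and the ZnF1-/- difference of Mta3 then ran from 0.14 to 0.25. Mbd2 was negative under each setting tried in all 3 comparisons.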

Other observations

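Transcripts of the members differ in base composition. Mbd3, the member with the largest difference toward the 50 bp libraries in wild type (log2 difference 0.92), has the highest GC content of the 10 transcripts at 62.7%. Mta1 (57.4%) and Chd3 (56.1%) had differences of 0.76 and 0.74, while Mbd2, at 56.5%, had 0.32, as did Hdac2 at 44.4%. Hdac1 was at 50.0% GC. These are 10 genes read in the same 3 wild type libraries, and no relation was tested.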
